A study of Bos taurus with 8 samples.

Results

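The high insulin dose was set against the low one in bovine blastocysts, across 11718 named genes. The comparison used all 8 arrays of the series, chosen by their titles: 4 arrays of embryos whose oocytes had matured with bovine insulin at 10 µg/ml (INS10) and 4 at 0.1 µg/ml (INS0.1), a 100-fold step in dose. Oocytes came from slaughterhouse ovaries, were fertilized and cultured in vitro, and met added insulin in the maturation medium. Each array also carried, in the other dye, RNA of control blastocysts whose oocytes matured with no insulin added. Every array therefore gave a log2 ratio of insulin over control, and the dose difference is the INS10 ratio minus the INS0.1 ratio. Insulin RNA was in Cy5 on replicates 1 and 2 of each dose and in Cy3 on replicates 3 and 4. The design text gives 4 biological replicates per treatment, while breed, sex and the number of embryos behind each RNA were not given in the sources used here.

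Insulin binds the insulin receptor, a tyrosine kinase that acts through IRS adaptors on the PI3K, AKT and mTOR route and on the MAP kinases, and in many tissues it promotes glucose use, lipid synthesis and growth. At high concentration it can also bind the IGF1 receptor. In the ovary the oocyte takes up metabolites through its cumulus cells, and maturation media often contain insulin. A blastocyst holds an outer trophectoderm, which forms the placenta, and an inner cell mass, which forms the embryo and the hypoblast. Any dose difference measured here lies several cell cycles after the exposure.

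The 2 doses lay on 2 slides, 1 dose per slide, so dose and slide cannot be told apart. The slides differed in background: negative control spots had medians of 122 to 152 intensity units in Cy5 on the INS10 slide and 164 to 194 on the INS0.1 slide. Between 53.7% and 58.8% of probes exceeded the detection limit in Cy5 on the INS10 slide, against 44.1% to 48.7% on the INS0.1 slide, and in Cy3 the ranges overlapped (51.6% to 58.7% and 52.8% to 56.4%). The labelled tissue was checked against its markers. POU5F1, NANOG, GATA3, KRT18 and IFNT, the bovine trophoblast interferon gene, exceeded the limit in all 16 readings (8 arrays, both dyes), and CDX2 did so in 14. HAND1, FGF4 and KLF17 did not pass the filter on dim probes.

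No probe differed between the doses at an adjusted p under 0.05 (limma, Benjamini-Hochberg over 29384 probes, 0% called, smallest adjusted p = 0.9999). Without adjustment, 845 probes had a p under 0.05, 2.88% of those tested, of which 392 were higher (1.33%) and 453 lower (1.54%) at INS10. The 2.88% was below the share of 0.05 that the threshold itself gives where no probe differs, but this depended on the fit. The share exceeded 0.05 where replicate number was blocked and dye was fitted slide by slide (2043 of 29384 probes). It also did so in replicates 1 and 2 alone (2162) and in replicates 3 and 4 alone (3089). In the remaining settings of the log2 ratios it stayed below 0.05. Among named genes 158 were higher (1.35%) and 176 lower (1.5%). The 4 ratios at INS10 all lay above the 4 at INS0.1 for 69 named genes (0.589%) and all below them for 72 (0.614%), together 141 genes (1.2%).

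The precision of single genes was as follows. The dose difference had a median SE of 0.23 log2 units, and its 95% interval reached 0.48 to either side, which is 1.39-fold. For 11351 of the 11718 named genes (96.9%) that interval lay wholly inside a 2-fold change in either direction, taken gene by gene. Differences ran from −0.36 at the 5th percentile of probes to 0.36 at the 95th, with a median absolute size of 0.14. For a probe to be called alone after adjustment over all probes it needed an unadjusted p of 1.7e-06, which at the median SE takes a difference of 1.502 log2 units. The largest dose differences described here lay below that size. The limit holds only for a probe called alone, since the adjustment can call smaller differences where many probes differ together. A lone dose difference below it, at the median SE, could therefore go uncalled with 4 arrays per dose.

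**Figure D1:**
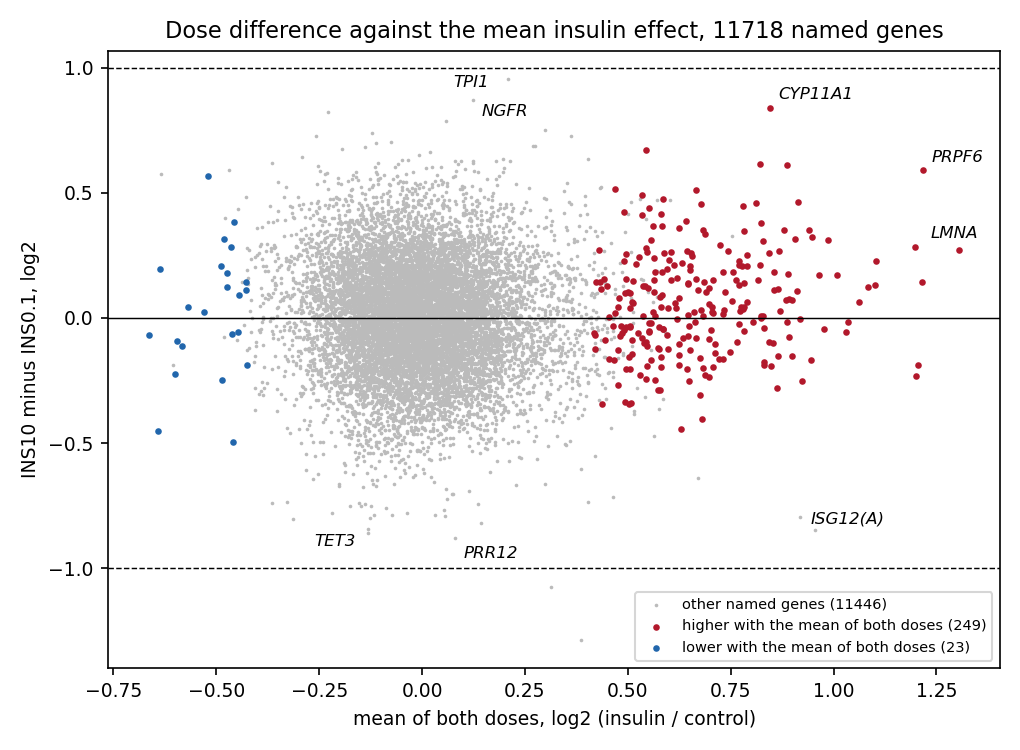
Each point is a named gene, with the mean of both dose effects (log2 insulin over control) on the horizontal axis and INS10 minus INS0.1 (log2) on the vertical axis; dashed lines mark 2-fold. The 249 genes called higher and the 23 called lower with the mean of both doses lie on both sides of 0 dose difference, and LUM (−1.29) and CNN1 (−1.08) are the 2 genes beyond a dashed line.

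The genes that responded to insulin at either dose were taken from the mean of both dose effects, a contrast that does not share its estimate with the dose difference in this balanced design. There were 249 named genes higher (2.12% of genes) and 23 lower (0.196%) at an adjusted p under 0.05. They come from the fit without the replicate block, in which 435 probes were higher and 49 lower, and under the block 256 and 14 probes were called. The 249 had a median log2 ratio of 0.70 at INS10 and 0.64 at INS0.1, and a median dose difference of 0.04. The ratio was larger at INS10 for 149 and smaller for 100, and 6 of the 249 (2.41%) had an unadjusted p under 0.05 for the dose difference, against 2.85% of all named genes. For 237 of them (95.2%) the 95% interval excluded a 2-fold dose difference. The 23 lower genes had a median dose difference of 0.04 as well, with medians of −0.50 at INS10 and −0.54 at INS0.1. Of these 23, 2 (8.7%, against 2.85% of all named genes) had such a p, 1 higher and 1 lower at INS10.

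These medians leaned on single arrays. The 249 genes had array medians of 0.79, 0.67, 0.78 and 0.50 on INS10 replicates 1 to 4 and of 0.11, 0.78, 0.92 and 0.77 on INS0.1 replicates 1 to 4. INS0.1 replicate 1 stood below the other 7. Without it the median dose difference was −0.12, with 69 of the genes larger at INS10 and 180 smaller. It was 0.28 in replicates 1 and 2, where insulin RNA was in Cy5, and −0.16 in replicates 3 and 4, so no direction of dose held for these genes as a group.

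LMNA, the gene of the A-type lamins that line the inside of the nucleus, had the largest mean effect. Its log2 ratios were 1.63, 1.34, 1.77 and 1.02 at INS10 and 0.11, 1.15, 2.12 and 1.30 at INS0.1. The doses overlapped, with a difference of 0.27 (95% interval −0.34 to 0.88). PRPF6, a component of the spliceosome, had ratios of 1.76, 1.97, 1.24 and 1.09 at INS10 and of −0.41, 1.72, 1.09 and 1.29 at INS0.1. Its difference of 0.59 (−0.12 to 1.29) was 1.21 in replicates 1 and 2 and −0.03 in replicates 3 and 4, and INS0.1 replicate 1 was the only array below 0.

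DHCR7, whose enzyme makes cholesterol from its immediate precursor, had ratios of 1.83, 1.15, 0.92 and 0.97 at INS10 and of 0.71, 0.87, 0.62 and 1.76 at INS0.1, with a difference of 0.23 (−0.34 to 0.79). ARPC1B, part of the Arp2/3 complex that starts new actin branches, had 1.93, 1.21, 0.73 and 0.71 at INS10 and 0.50, 1.38, 1.13 and 1.07 at INS0.1. Both genes were higher than control on all 8 arrays with overlapping doses. The other 6 genes of the 10 with the largest mean effect had dose differences from −0.23 to 0.28. They were ATP5D (0.14), of the mitochondrial ATP synthase, SEC13 (0.28), shared by the COPII coat and nuclear pores, MAP2K2 (0.13), a kinase that activates ERK, CTSZ (0.06), a lysosomal protease, LOC100125266 (−0.19) and ARL6IP4 (−0.23). All of the 10 had intervals that spanned 0, and the sign in replicates 1 and 2 was opposite to that in replicates 3 and 4 for each of them.

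**Figure D2:**
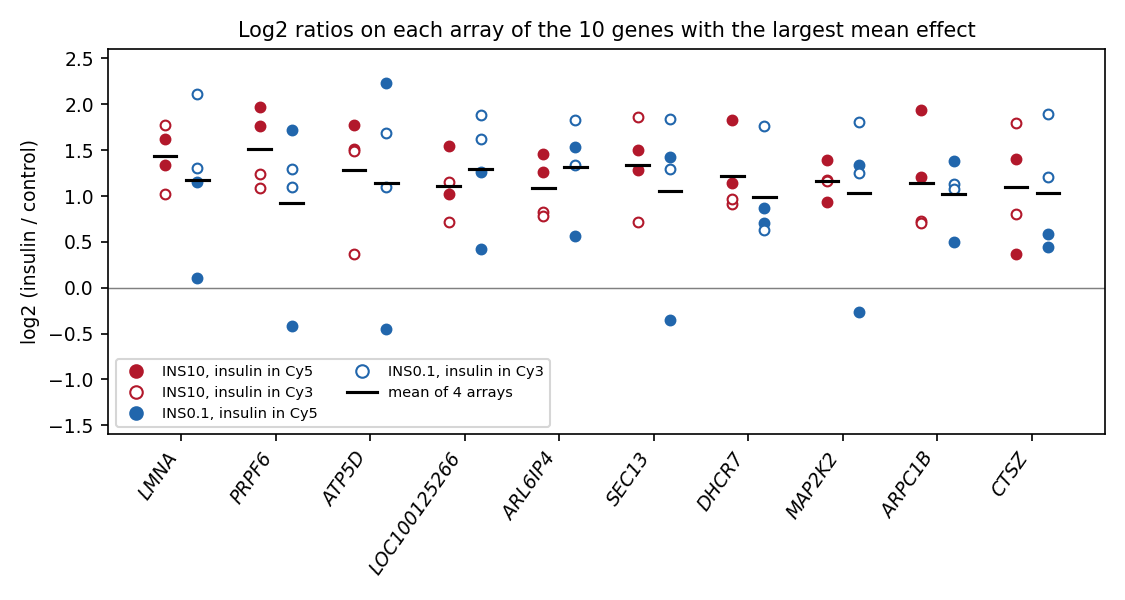
Log2 ratios of insulin over control on each array (vertical axis) for the 10 genes with the largest mean effect of both doses, INS10 in red and INS0.1 in blue, filled where insulin RNA was in Cy5 and open where it was in Cy3, with the mean of 4 arrays as a bar. The doses overlap for every gene, and 1 filled INS0.1 point, replicate 1, lies lowest for 8 of the 10.

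Set against control dose by dose, 68 named genes passed the adjusted threshold as higher at INS10 (0.58%) and 17 at INS0.1 (0.145%), and 1, PRM1, as lower at INS10 (0.00853%). A gene past the threshold at 1 dose only was not thereby shown to differ between them. Both comparisons rest on control RNA of the same treatment group. Of 56 genes called at INS10 and not at INS0.1, 54 had the larger ratio at INS10, as the choice favours, and 8 (14.3%, against 2.85% of all named genes) had an unadjusted p under 0.05 for the difference itself, which the choice favours too. None of the 56 passed the adjusted threshold (limma, smallest adjusted p = 0.9999). Their array medians were 1.03, 0.86, 0.95 and 0.74 on INS10 replicates 1 to 4 and 0.11, 0.78, 0.93 and 0.78 on INS0.1 replicates 1 to 4, and their median difference was 0.50 in replicates 1 and 2 and 0.01 in replicates 3 and 4. The 4 genes called at INS0.1 alone were HS1BP3 (difference −0.40), the tetraspanin gene TSPAN17 (−0.25), the fatty acid desaturase gene FADS2 (−0.19) and PRKRIP1 (−0.18), each with an interval that spanned 0. A further 13 genes, LMNA, DHCR7, ARPC1B and CTSZ among them, were called at both doses, with a median difference of 0.00.

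The 8 genes are named here after their values were seen. CYP11A1, which cuts the side chain of cholesterol to start steroid synthesis, had log2 ratios of 2.03, 0.89, 1.09 and 1.05 at INS10 and of −0.39, 0.03, 1.28 and 0.78 at INS0.1. Its difference of 0.84 (95% interval 0.21 to 1.47, unadjusted p = 0.0116 by limma) was 1.64 in replicates 1 and 2 and 0.04 in replicates 3 and 4. INS0.1 replicate 3 lay within the INS10 range, and the other 3 INS0.1 arrays lay below it.

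ARPC1A, the paralogue of ARPC1B, had 1.71, 0.66, 0.74 and 0.40 at INS10 and −0.23, 0.42, 0.56 and 0.09 at INS0.1, a difference of 0.67. ACP5, the tartrate-resistant acid phosphatase, had 0.89, 0.82, 1.60 and 1.45 at INS10 and −0.41, 0.997, 1.24 and 0.50 at INS0.1, a difference of 0.61. For both the ranges overlapped. PVRL2 (current symbol NECTIN2), an adhesion protein of cell junctions, and PDCD5, an apoptosis-related gene, were the 2 of the 8 without overlap, at differences of 0.73 and 0.52. RPS9 (0.63), RPS10 (0.61) and WDR5 (0.51), a subunit of histone methyltransferase complexes, made up the rest, and another probe of RPS9 lay at −0.18.

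The largest differences without overlap of the doses were values with no call. NGFR, the low-affinity neurotrophin receptor, had log2 ratios of 0.12, 0.67, 0.56 and 0.89 at INS10 and of −0.08, −0.67, −0.19 and −0.31 at INS0.1. It was above control on every INS10 array and below it on every INS0.1 array, a difference of 0.87 (95% interval 0.41 to 1.34, unadjusted p = 0.000859 and adjusted p = 0.9999 by limma). The difference was 0.77 in replicates 1 and 2 and 0.98 in replicates 3 and 4, and 0.77 to 1.01 over the 24 other settings of the ratio analysis. The choice of genes without overlap fixes the sign in both parts, and the settings reuse the same arrays. PVRL2 had 0.61, 0.43, 0.96 and 0.92 at INS10 and 0.22, 0.21, −0.12 and −0.32 at INS0.1. Its difference was 0.30 in replicates 1 and 2 and 1.16 in replicates 3 and 4.

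ACAD8, an enzyme of valine breakdown, had 1.07, 0.23, 0.38 and 0.80 at INS10 and 0.06, −0.03, −0.35 and 0.04 at INS0.1, a difference of 0.69 that was similar in both dye orientations (0.63 and 0.75). SH3BGRL differed by 0.68, GOLIM4, a Golgi membrane protein, by 0.63, the threonyl-tRNA synthetase gene TARS by 0.63 and STOM, the membrane protein stomatin, by 0.56. Other probes of SH3BGRL (−0.21) and GOLIM4 (−0.16) had the opposite sign, and those of STOM lay at 0.17 and 0.07. DCLK1, LOC511937, the Y-linked RNA helicase gene DDX3Y, the tubulin folding cofactor TBCC, ZNF382, the mitochondrial protease gene AFG3L2, ANKRD53 and RSU1 completed the 15, at 0.49 to 0.57. Another probe of RSU1 had the opposite sign (−0.21), that of TBCC lay at 0.01, and those of ZNF382 at 0.24 and 0.63.

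Among genes lower at INS10, PRR12 had ratios of 0.30, 0.23, −0.77 and −1.19 at INS10 and of 0.57, 0.53, 0.39 and 0.59 at INS0.1. The INS10 arrays fell into 2 pairs by dye, so that the difference of −0.88 (95% interval −1.39 to −0.37) was −0.28 in replicates 1 and 2 and −1.47 in replicates 3 and 4. LOC508858 (−0.79), INTS2 (−0.78), a subunit of the Integrator complex, and FADS1 (−0.79), the delta-5 fatty acid desaturase, followed. Other probes of INTS2 lay at 0.02 and 0.21, and that of FADS1 at 0.39.

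LFNG, a glycosyltransferase that modifies Notch receptors, had −0.38, 0.02, −0.98 and −0.70 at INS10 and 0.31, 0.38, 0.05 and 0.19 at INS0.1, a difference of −0.74. JAG2, a Notch ligand, had −0.58, −0.36, −0.54 and −0.51 at INS10 and −0.08, 0.51, 0.18 and −0.12 at INS0.1, a difference of −0.62, while 2 other probes lay at −0.06 and −0.12. LIMK1, a kinase that inactivates the actin-severing protein cofilin, had −0.57, −0.42, −0.48 and −0.34 at INS10 and −0.15, 0.31, −0.15 and 0.53 at INS0.1, a difference of −0.59. For JAG2 and LIMK1 the difference was similar in both dye orientations, at −0.68 and −0.55 for JAG2 and −0.57 and −0.60 for LIMK1. PRPSAP2, FAM107B, SOBP, APBB3, BARHL2, CCDC142, ABAT, which degrades GABA, and FCHSD1 differed by −0.77 to −0.54. Another probe of FAM107B had the opposite sign (0.27), and that of PRPSAP2 lay at −0.02. BARHL2, ANKRD53 and CCDC142 were dim, above the limit in 4, 5 and 6 of 16 readings. DCLK1 and FCHSD1 exceeded it in 10 and 11 readings, mainly on the INS10 slide. There both did so in 4 of 4 readings of each channel. On the INS0.1 slide DCLK1 did so in 1 of 4 insulin and 1 of 4 control readings, and FCHSD1 in 2 and 1. FAM107B also exceeded the limit in 11 of 16 readings, with 1 of 4 control readings on the INS0.1 slide.

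**Figure D3:**
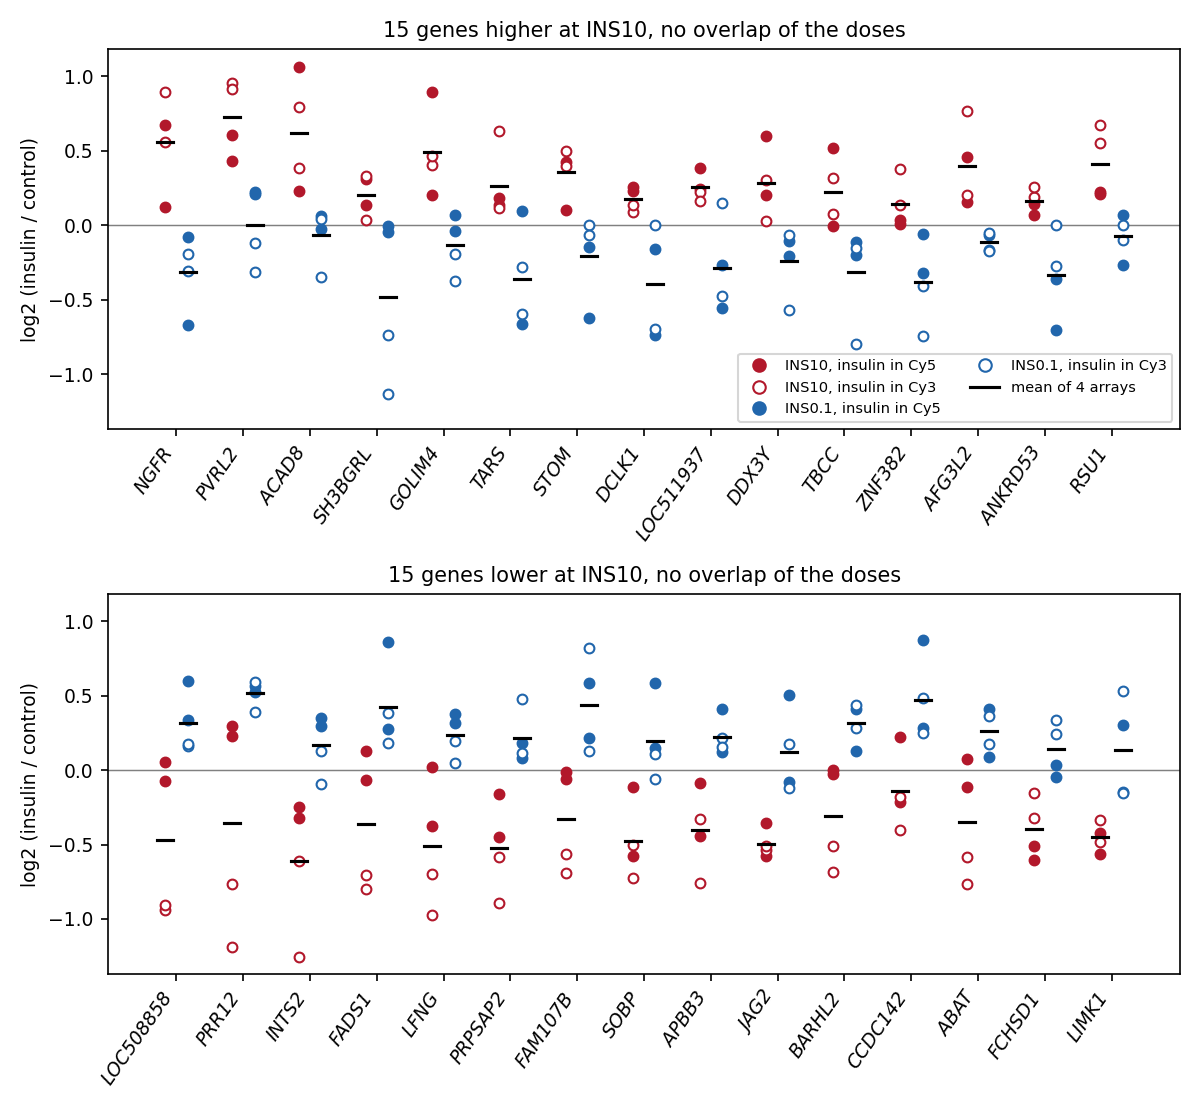
Log2 ratios of insulin over control on each array (vertical axis) for the 15 genes higher and the 15 lower at INS10 with the smallest unadjusted p among genes whose doses did not overlap; colours and fills mark dose and dye, and bars are means of 4 arrays. NGFR lies above 0 on 4 of 4 INS10 arrays and below it on 4 of 4 INS0.1 arrays; for LOC508858 and PRR12 the open INS10 points, replicates 3 and 4, lie far below the filled ones.

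Opposite signs at the doses on every array were seen for 26 named genes, 14 positive at INS10 and negative at INS0.1 (0.119%) and 12 the other way (0.102%). PPARG, a lipid-regulated transcription factor of adipocytes and trophoblast, was among the first, at 0.12, 0.02, 0.07 and 0.23 for INS10 and −0.40, −0.11, −0.29 and −0.74 for INS0.1. Its difference was 0.50 with 8 of 16 readings above the limit, and it was picked out after its values were seen. STAU1, which transports mRNA, and SENP3, a SUMO protease, were among the second, at −0.30 and −0.34.

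Glucose use was the group with the most members at an unadjusted p under 0.05 in the higher direction. Of 31 genes of glucose transport and glycolysis 27 were measured, and 4 were higher (against 1.35% of all named genes) and 1 lower (against 1.5%), with none past the adjusted threshold. The 4 were TPI1, LDHA, PGK1 and PFKM, and the 1 was PDK1. Over the 27 the median difference was 0.09, against 0.00 over all named genes, 16 were positive, and the list median was positive in each of the 4 same-number pairs (0.15, 0.14, 0.07 and 0.04). It ran from −0.01 to 0.15 over the other settings. This was not particular to glucose use. The medians of the COPII coat, antioxidant and cell cycle lists were also positive in each pair, and that of interferon response was negative in each.

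TPI1, triosephosphate isomerase, had the smallest p of all probes. Its log2 ratios were 0.55, 0.15, 1.18 and 0.86 at INS10 and −0.61, −1.18, 0.07 and 0.65 at INS0.1. The doses overlapped, yet INS10 was higher in each same-number pair, by 1.16, 1.33, 1.11 and 0.22. The difference of 0.95 is 1.94-fold (95% interval 0.46 to 1.45, unadjusted p = 0.000587 and adjusted p = 0.9999 by limma). It stayed at 0.67 or above in the other settings of the ratio analysis, which reuse the same arrays.

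LDHA, the lactate dehydrogenase subunit that favours lactate, had −0.17, 0.07, 0.75 and 0.24 at INS10 and −0.19, −0.16, −0.89 and −0.13 at INS0.1. Its difference of 0.57 rested mainly on replicates 3 and 4 (1.005, against 0.13 in replicates 1 and 2), and another probe lay at 0.72. PGK1, phosphoglycerate kinase, had 0.47, −0.37, 0.38 and 0.37 at INS10 and −0.51, −0.04, −0.33 and −0.36 at INS0.1, a difference of 0.52 that was opposite in pair 2 (−0.33). PFKM, the muscle-type phosphofructokinase, had −0.23, 0.25, 0.19 and 0.36 at INS10 and −0.42, −0.36, −0.55 and −0.03 at INS0.1. Its difference of 0.48 was positive in every pair. TKT, transketolase of the pentose phosphate route, did not overlap, with 0.60, 0.42, 0.21 and 0.28 at INS10 and 0.14, 0.05, 0.09 and −0.22 at INS0.1.

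PDK1, the kinase that shuts off pyruvate dehydrogenase, had 0.33, −0.06, −0.87 and −0.53 at INS10 and 0.64, 0.58, −0.05 and 0.43 at INS0.1. It was lower at INS10 in each pair, with pair differences of −0.31, −0.64, −0.83 and −0.97 and an overall difference of −0.68 (95% interval −1.14 to −0.23), but its 2 other probes lay at 0.46 and 0.06. SLC2A1, the widely expressed glucose transporter, had 0.65, 0.23, −0.16 and 0.37 at INS10 and 0.04, −0.18, −0.23 and −0.17 at INS0.1. Its difference of 0.40 (−0.05 to 0.85) spanned 0, and another probe lay at −0.04. Values were not all on one side of 0: the aldolases ALDOA and ALDOC had −0.24 and −0.20, the liver-type PFKL had −0.19, the hexokinases HK1 and HK2 had 0.09 and 0.06 and PGAM1 had 0.00. GAPDH and PKM were not matched to a probe by symbol.

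**Figure D4:**
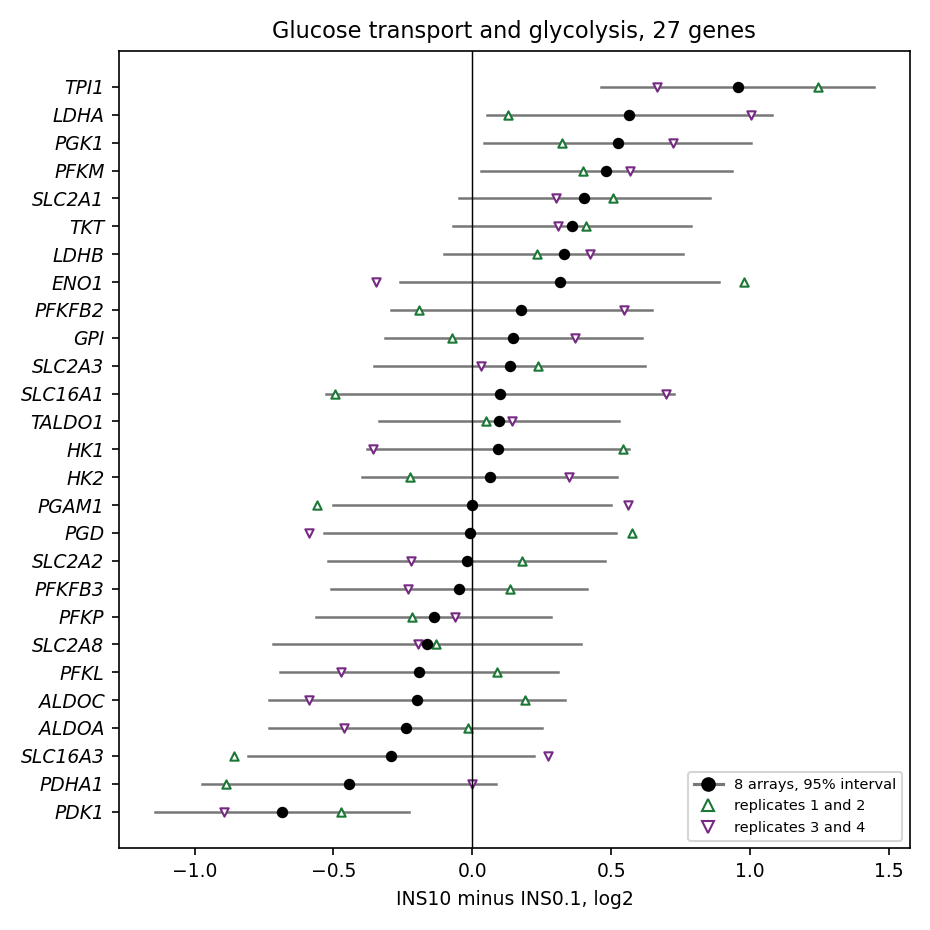
INS10 minus INS0.1 (log2, horizontal axis) for the 27 measured genes of glucose transport and glycolysis, with 95% intervals over 8 arrays and, as triangles, the difference within replicates 1 and 2 and within replicates 3 and 4. The intervals of TPI1, LDHA, PGK1 and PFKM lie above 0 and that of PDK1 below it; 22 intervals span 0, and for ENO1, PGD and PGAM1 the triangles lie on opposite sides of 0.

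Intervals of the receptors INSR and IGF2R included dose differences of either sign. INSR, the insulin receptor, had log2 ratios of 0.25, 0.12, −0.18 and −0.24 at INS10 and of 0.01, 0.15, −0.01 and −0.44 at INS0.1, a difference of 0.06 (95% interval −0.37 to 0.49). IGF2R, which clears IGF2 and sorts lysosomal enzymes, was above control on all 8 arrays, at 0.60, 0.49, 0.96 and 0.99 for INS10 and 0.22, 0.36, 1.34 and 0.64 for INS0.1, a difference of 0.12 (−0.33 to 0.57). IGF1R and IRS1 did not pass the filter on dim probes. Of 23 measured members of insulin and IGF signalling, 16 were positive, the median was 0.08, and values ran from −0.61 to 0.63. ENPP1, a membrane enzyme that inhibits the insulin receptor, was the only one at an unadjusted p under 0.05 (0.63). Over all named genes the share was 2.85%.

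The share of all named genes at an unadjusted p under 0.05 was 2.85%. Downstream, 0 of 31 genes of the PI3K, AKT and mTOR route and 1 of 30 MAP kinase genes had such a p. The 1 was MAPK8, which encodes the stress kinase JNK1, with −0.15, 0.31, −0.54 and −0.81 at INS10 and 0.11, 0.78, 0.27 and 0.20 at INS0.1, a difference of −0.63, while its other probe lay at −0.08. The catalytic PI3K subunit PIK3CA had 0.38 (−0.05 to 0.82). None of 22 immediate early genes had an unadjusted p under 0.05. JUN had the largest value, 0.47. In lists this short, a count of 0 or 1 does not show that a dose response was absent.

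Lipid genes were spread on both sides. Of 21 genes of cholesterol synthesis 13 were positive and none had an unadjusted p under 0.05, with a median of 0.08 that was 0.14 in replicates 1 and 2 and −0.17 in replicates 3 and 4. SC4MOL (MSMO1) and SC5DL (SC5D), sterol-modifying enzymes, had 0.59 and 0.51 with intervals that spanned 0, and LSS, which closes the sterol ring, had −0.39. Among 26 measured genes that make fatty acids or store lipid, FADS1 was the only one at that threshold, and SCD, the delta-9 desaturase, had 0.50 (−0.15 to 1.14). Fatty acid oxidation had 0 of 25, with a median of 0.00. Over all named genes 2.85% were at that threshold.

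Replication genes had the highest list median, 0.15 over 24 genes of the MCM helicase and replication origins, with 17 positive. MCM10, an initiation factor, had 0.54, 0.27, 0.22 and 0.42 at INS10 and 0.23, −0.01, −0.43 and −0.19 at INS0.1, overlapping by replicate 1 of INS0.1 and a difference of 0.47 (0.03 to 0.91). CDC6, which loads the helicase, had 0.47 (−0.05 to 0.98), and the helicase subunits MCM2 to MCM7 had 0.04 to 0.32, all with intervals across 0. The list's INS10 median was 0.23 on replicate 1 and −0.02 to −0.01 on the other 3 arrays, against −0.18 to 0.01 at INS0.1. Among 39 cell cycle genes, with a median of 0.10, E2F1, an S-phase transcription factor, had −0.49.

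Protein synthesis and turnover showed members in both directions. Of 62 cytosolic ribosomal proteins, RPS9 and RPS10 were higher (against 1.35% of all named genes) and RPLP2, of the ribosomal stalk, was lower (−0.51, against 1.5%) at an unadjusted p under 0.05, and none passed the adjusted threshold. RPLP2, RPS25 and RPL28 had all 4 INS10 ratios below all 4 at INS0.1 (against 0.614% of all named genes), and the median of the 62 was −0.02. Translation factors had EEF1G at 0.53 and EIF3J and EIF4A2 at −0.53 each, of 40 measured. Heat shock and ER chaperones had no member at that threshold, against 2.85% of all named genes. Of 26 measured, 20 were positive with a median of 0.14, the second highest. HSPA1A, the inducible HSP70, had 0.41. The list's median on INS10 replicate 1 was 0.40, against −0.03 to 0.08 on the other INS10 arrays and −0.07 to 0.13 at INS0.1.

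In the cytoskeleton list 2 of 43 had an unadjusted p under 0.05 in the higher direction, against 1.35% of all named genes, and none passed the adjusted threshold. They were ARPC1A and STMN1, which destabilizes microtubules. STMN1 had 0.28, 0.74, 0.26 and 0.36 at INS10 and 0.53, −0.08, −0.71 and −0.61 at INS0.1, a difference of 0.63, and its other probes lay at 0.38 and 0.36. The remaining Arp2/3 subunits had −0.18 (ACTR3) to 0.28 (ACTR2), all with intervals across 0. Among other lists, TFG, of ER export sites, had 0.74, HMOX1, the haem-degrading stress enzyme, had 0.65, and FIS1, a mitochondrial fission protein, had −0.55 with other probes at −0.19 and −0.30. LMNB1, the B-type lamin gene, had −0.53, opposite in sign to LMNA. None of 75 oxidative phosphorylation genes had an unadjusted p under 0.05, against 2.85% of all named genes, and the median of the 75 was 0.04.

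TET3, the enzyme that oxidizes methylated cytosine after fertilization, had the lowest value of 13 DNA methylation genes. Its log2 ratios were 0.02, 0.40, −1.33 and −1.30 at INS10 and 0.31, 0.46, −0.05 and 0.44 at INS0.1. The difference of −0.84 (95% interval −1.38 to −0.31) was −0.17 in replicates 1 and 2 and −1.51 in replicates 3 and 4, a split like that of PRR12. DNMT3B, a DNA methyltransferase, had −0.34 (−0.85 to 0.17).

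Interferon response genes had the lowest list median, −0.10 over 22 genes, of which 14 were negative. The median was −0.03 within replicates 1 and 2 and 0.00 within replicates 3 and 4, so neither dye orientation alone gave it. MX1, an antiviral GTPase, had 0.45, 0.07, 0.01 and 0.05 at INS10 and 0.87, 1.25, 0.41 and 0.26 at INS0.1, a difference of −0.55 with 8 of 16 readings above the limit. ISG12(A) (IFI27) had −0.71, −0.09, 0.80 and 2.09 at INS10 and 0.12, 2.59, 2.29 and 0.28 at INS0.1. Its spread within each dose exceeded the difference of −0.80 (−1.80 to 0.20), and another probe lay at −0.14.

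**Figure D5:**
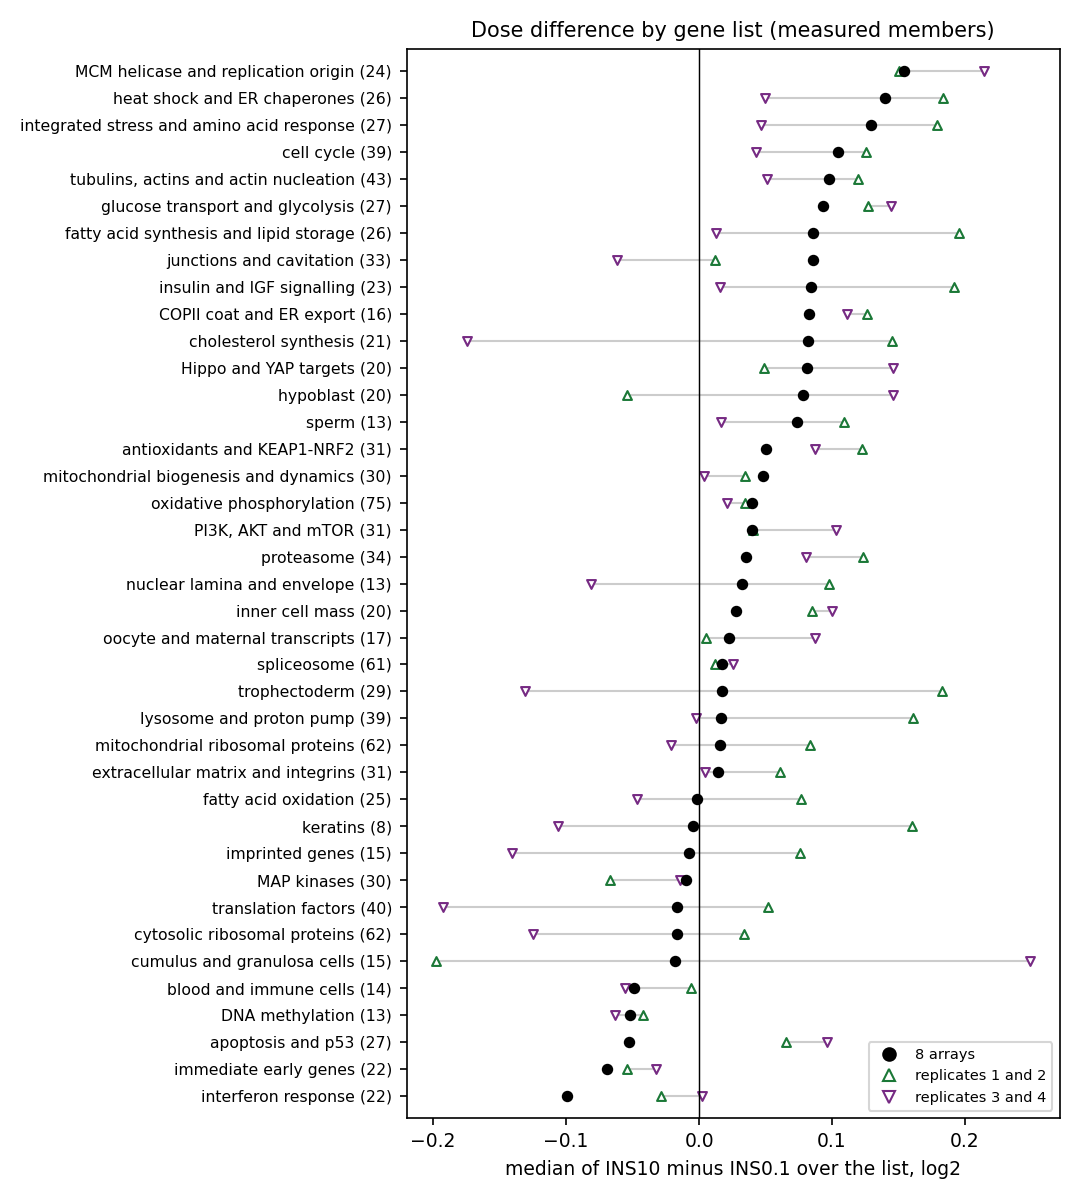
Median of INS10 minus INS0.1 (log2, horizontal axis) over the measured members of 39 gene lists, with the number measured in brackets; black points use 8 arrays and triangles the replicates of 1 dye orientation. List medians run from −0.10 for interferon response to 0.15 for the MCM helicase and replication origin, and for lists such as cholesterol synthesis, trophectoderm and cumulus and granulosa cells the triangles lie on opposite sides of 0.

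All 39 lists together named 1347 entries, of which 1124 were measured, 111 had no probe with the symbol and 112 did not pass the filter. None of the 1124 passed the adjusted threshold.

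Markers of the cells of the blastocyst showed no member at an unadjusted p under 0.05, against 2.85% of all named genes. The markers covered 29 trophectoderm, 20 inner cell mass and 20 hypoblast genes, with medians of 0.02, 0.03 and 0.08. CDX2, the trophectoderm factor, differed by 0.03 (95% interval −0.44 to 0.49) and TEAD4, which acts upstream of it in the mouse, by 0.10 (−0.35 to 0.56). POU5F1 had 0.30, −0.04, −0.32 and −0.41 at INS10 and −0.23, 0.06, 0.35 and 0.41 at INS0.1, a difference of −0.27 (−0.75 to 0.22) that was 0.21 in replicates 1 and 2 and −0.74 in replicates 3 and 4. SOX2 (0.14) and NANOG (−0.14) also had intervals across 0. ELF3, an epithelial transcription factor, had −0.50 (−1.11 to 0.11).

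Markers of other cells were read in the same way, since embryos can carry remnants of cumulus cells or sperm. Of 28 cumulus and granulosa genes 15 were measured, and CYP11A1 and CYP19A1, the aromatase gene (0.54, with another probe at −0.14), were higher at an unadjusted p under 0.05 (against 1.35% of all named genes), with none past the adjusted threshold. The median of the 15 was −0.02, and its array medians were −0.09 to 0.10 at INS10 and −0.12 to 0.07 at INS0.1. STAR, which carries cholesterol to CYP11A1, had −0.28, while FOXL2, AMH, FST and LHCGR did not pass the filter. Sperm genes had 0 of 13, and PRM1, a sperm protamine, had −0.84, −0.54, −0.73 and −1.36 at INS10 and −0.49, 0.25, −0.95 and −0.48 at INS0.1, a difference of −0.45 (−0.94 to 0.04). Oocyte genes had 1 of 17, PADI6 (0.53), and blood and immune genes 1 of 14, TYROBP (0.54). Over all named genes the share in either direction was 2.85%. The part of other cells in the differences was not tested.

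The dye channels were also taken singly. In the insulin channels dose and slide coincide. Whether both slides carried the same control RNA was not given. Insulin channels differed between the INS10 and INS0.1 slides for 2191 probes (7.46%) at an adjusted p under 0.05 by limma, and control channels, which carry no insulin group, for 1693 (5.76%). Among named genes these were 689 (5.88%) and 526 (4.49%). For TPI1 the insulin channel differed by 0.70 and the control channel by −0.25, for NGFR by 0.90 and 0.03, for CYP11A1 by 0.50 and −0.34, and for PVRL2 by 0.39 and −0.34. For LOC508858 it was −0.77 and 0.02, and for TET3 −0.72 and 0.12. ABAT differed by −1.98 in the insulin channel and −1.37 in the control channel, and JAG2 by −1.62 and −1.004. For other genes without overlap of the doses the control channel differed more than the insulin channel. TARS had −0.22 in the insulin channel and −0.85 in the control channel, and ANKRD53 had −0.04 and −0.54. LIMK1 had −0.05 and 0.54, and FCHSD1 had 0.21 and 0.75. The channel examples were picked after their values were seen.

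Dye orientation was the other axis along which the dose difference varied. Whether the dose difference in replicates 1 and 2 differed from that in replicates 3 and 4 was tested as an interaction: 0 probes passed the adjusted threshold (limma, smallest adjusted p = 0.204), and 4250 (14.5%) had an unadjusted p under 0.05. The 14.5% was above the share of 0.05 that the threshold itself gives where no probe differs. Of 11718 named genes, 4527 had the same sign of dose difference in both orientations, a minority of the genes. Replicate number and dye orientation coincide across the slides, so a dye effect and a difference between those replicates cannot be told apart.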

How the data were processed

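Per the labels' protocols, RNA extraction used PicoPure, amplification took 2 rounds of RiboAmp HS Plus, and dyes were attached by the Universal Linkage System. The deposited scanner tables hold median spot intensity and background intensity in both channels, per the file headers. The authors' own log2 ratios were deposited in a further table, whose scaling between arrays is unknown. Its columns correlated at 0.971 to 0.995 with the scanner ratios and had medians of −0.02 to 0.01, and it served as an alternative.

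Intensities were background corrected (normexp, offset 50) and loess-normalised within arrays, with control and ignored spots at weight 0. Probes above the mean plus 2 SD of 153 negative controls in at least 4 of 16 readings were kept, 29384 of 43794. Of these 43794, 21790 had 1 gene symbol in the platform annotation, 22004 none and 0 several. A RefSeq table (assembly ARS-UCD2.0) listed 14114 of the 15229 symbols as current and 982 as synonyms. The brightest probe stood for a gene, and 2816 of 11718 genes had over 1 kept probe. The number of arrays limits the precision.

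The model was run with lmFit and eBayes of limma 3.58.1 under R 4.3.3, with 1 effect per dose and a dye effect per probe, checked on simulated data, and p-values were adjusted by Benjamini-Hochberg. The rule for named genes took genes past the adjusted threshold without overlap of the doses, filled to 15 in each direction by the smallest unadjusted p, up to 3 genes per list, 14 set genes (INSR, LMNA, CYP11A1 and others) and the 10 with the largest mean effect. Genes outside it were chosen after their values were seen: PGK1, PFKM, other members given to show a list's spread, and those so marked. The members, lists and rule were chosen with earlier results of these data known. Lists were described, not tested.

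Replicate numbers were checked for pairing across slides: deviations from group means correlated at 0.312, 0.221, 0.257 and 0.249 for equal numbers. For unequal numbers they correlated at 0.00 to 0.10 in the same dye orientation and at −0.22 to −0.06 in opposite ones. The numbers were therefore taken to pair the arrays. The main fit had no replicate block, so the intervals and p-values given for single genes do not use this pairing. Alternatives were other dye terms and blocks, normalisations and filters, each array left out, separate channels and each dye orientation alone, the last chosen after seeing the data.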

Additional observations from a re-analysis of the deposited data

Results flagged for a closer look

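Genes with opposite signs at the doses on every array were picked out, and the fit's test of the difference called none of them (limma, adjusted p = 0.9999 for each). Differences were 0.87 for NGFR, 0.68 for SH3BGRL, 0.52 for DDX3Y, 0.52 for ZNF382, 0.51 for AFG3L2, 0.50 for ANKRD53 and 0.50 for PPARG, positive at INS10 and negative at INS0.1. They were −0.77 for FAM107B, −0.74 for PRPSAP2, −0.63 for APBB3 and −0.62 for BARHL2, negative at INS10 and positive at INS0.1. Other probes of SH3BGRL (−0.21) and FAM107B (0.27) had the opposite sign, and that of PRPSAP2 lay at −0.02.

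In 13 of 308 groups of 4 arrays examined, 1 array stood apart from the other 3 by more than Dixon's 95% critical value, and chance flags about 1 in 20 groups. At INS10 these were PGK1 on replicate 2 (log2 ratio −0.37, the others 0.37 to 0.47), TARS on replicate 4 (0.63, the others 0.11 to 0.19), MX1 on replicate 1 (0.45, the others 0.01 to 0.07), EIF4A2 on replicate 3 (−0.74, the others −0.22 to −0.15) and PRKRIP1 on replicate 3 (1.09, the others 0.60 to 0.66). At INS0.1 they were LDHA on replicate 3 (−0.89, the others −0.19 to −0.13), TBCC on replicate 3 (−0.79, the others −0.20 to −0.11), PSMB7, a proteasome subunit, on replicate 2 (0.094, the others −0.27 to −0.23), CYP19A1 on replicate 1 (−1.14, the others −0.36 to −0.25) and HSPA1A on replicate 1 (−0.25, the others 0.53 to 0.63). Among list medians, immediate early genes stood apart on INS10 replicate 3 (−0.23, the others −0.04 to −0.02), the MCM helicase list on INS10 replicate 1 (0.23, the others −0.02 to −0.01) and DNA methylation on INS0.1 replicate 4 (0.29, the others −0.05 to 0.00).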

How the results depend on the processing

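The count of 0 called probes held in the other settings of the log2 ratios, and with the insulin channels alone it was 2191. The count at an unadjusted p under 0.05 was 845, and 950 under a replicate block, 2043 under a replicate block with 1 dye effect per slide, 414 without the dye term, 456 among probes above the limit in all 16 readings, 6615 with insulin channels alone, 2162 in replicates 1 and 2 and 3089 in replicates 3 and 4. It was 659 to 1265 with each array left out. With block and slide-wise dye effects the smallest adjusted p was 0.326 by limma. Probes of the mean of both doses numbered 484, and 270 over the 4 numbers with either replicate block, 262 without the dye term, 127 in replicates 1 and 2, 1744 in replicates 3 and 4 and 275 to 605 with an array left out. The median dose difference of the 249 genes was −0.12 to 0.14 with an array left out. Among these results the block changed no other call. Each dose against control, the test of dye orientation and the separate channels were not run with it. Dim probes limit what could be measured, and the causes of these shifts were not tested.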

Other observations

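The 2 largest dose differences of all named genes, in LUM and CNN1, had overlapping doses and rested on a few arrays, and the genes given here were picked out after their values were seen. LUM, which encodes the matrix proteoglycan lumican of connective tissue, had log2 ratios of −0.89, 0.03, −0.49 and 0.33 at INS10 and of −0.11, 2.43, 2.13 and −0.33 at INS0.1, a difference of −1.29. CNN1, a calponin of smooth muscle, had −0.67, 0.77, −0.39 and −0.60 at INS10 and 0.80, 2.06, 0.61 and −0.07 at INS0.1, a difference of −1.08. XCL2, a chemokine gene, had 0.08, 0.43, 0.39 and 1.22 at INS10 and 0.34, 3.66, 1.60 and −0.09 at INS0.1. INS0.1 replicate 2 held the highest ratio for all 3, as it did for ISG12(A), and LUM, CNN1 and XCL2 were above the limit in 12, 8 and 12 of 16 readings.

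Several genes had low INS10 ratios on replicates 3 and 4 alone, where insulin RNA was in Cy3. KCTD17 had 0.15, 0.27, −0.90 and −1.76 at INS10 and 0.38, 0.53, −0.05 and 0.32 at INS0.1. PUM2, an RNA-binding translational repressor, had −0.08, 0.29, −1.46 and −1.61 at INS10 and 0.48, 0.55, −0.69 and 0.02 at INS0.1. Like TET3 and PRR12, both were close to or above control on INS10 replicates 1 and 2.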
